A study of Homo sapiens with 6 samples.

Results

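The genes described here were CEP20 (also known as FOPNL or FOR20), the target of the knockdown, and 9 genes for proteins of the centriolar satellites or for its close relatives: CEP43 (also known as FOP or FGFR1OP), OFD1, PCM1, CEP131, CEP290, CCDC14, CEP72, MIB1 and KIAA0753. They were chosen by name, from what their products are known to do, but with earlier results of these data known. They were 10 of the 60624 Ensembl gene IDs in the expression table. All 10 passed the filter of a mean of at least 1 TPM (a level scaled for transcript length and for the total of each library) and were among the 14778 genes tested. The data were RNA-seq of A549, a human non-small cell lung cancer cell line, in 2 groups of 3 samples each, siCEP20 transfected with small interfering RNA against CEP20 and siCTR with control small interfering RNA, both for 3 days. The 2 groups shared the cell line and the transfection. The treatment field of the labels gives a plasmid transfection instead, and the labels and the study's methods differ in culture medium, amount of RNA and library kit. The study names a pair of siRNAs against CEP20, the labels do not say which was used for these libraries, and the labels do not say whether the samples came from separate cultures, so the spread between them may be technical. RNA came from whole cultures, so fewer cells carrying a transcript and less of it in each cell cannot be told apart.

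Centriolar satellites are small granules without a membrane that gather around the centrosome. They move along microtubules and carry proteins to the centrioles and to the base of the cilium, the antenna-like organelle that many cells build from a centriole. PCM1 is the scaffold on which satellites assemble, and most other satellite proteins bind it directly or through each other. CEP20 is a small protein of this group with a LisH domain, a short motif through which proteins form dimers, and it shares this architecture with CEP43 and OFD1.

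The cultures had the keratins of an epithelial line. KRT8, KRT18, KRT19, CDH1 and EPCAM had summed levels between 3230 and 3300 TPM in siCTR and between 4187 and 4368 TPM in siCEP20. KRT8 and KRT18 accounted for most of this, with siCTR means of 1587 and 1593 TPM. EPCAM was low, with a mean of 1.041 TPM in siCTR and 3.382 TPM in siCEP20. All 5 passed the test in the higher direction, as did 30.2% of all tested genes. KRT18 and KRT19 no longer passed with median-of-ratios scaling between libraries (limma, adjusted p = 0.272 and 0.0698). Of 8 markers of leukocytes, endothelium and fibroblasts, 7 were under 1 TPM in every library and 3 of these (CD3E, DCN and COL1A2) were at 0 in all 6; the summed level of the 8 was 15.1 to 23.1 TPM in siCTR and 27.3 to 45.3 TPM in siCEP20. CD68, which also encodes a protein of lysosomes, made up nearly all of that sum. The part of these markers in the results on the satellite genes was not tested. Between 14429 and 14600 genes reached 1 TPM in the siCTR libraries and between 14851 and 14987 in the siCEP20 libraries. Over the tested genes as a whole, the middle log2 fold change was 0.13 rather than 0, and some changes are therefore also given relative to this value, called the overall median.

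CEP20 (ENSG00000133393) lies on chromosome 16 at 15865719 to 15888625 of hg38, on the minus strand, and its annotated canonical transcript has 5 exons. Its level was 29.2, 30.5 and 35.1 TPM in the siCTR samples and 16.2, 15.3 and 17.3 TPM in the siCEP20 samples. The 3 knockdown libraries all lay below the 3 controls, and their mean was 51.4% of the control mean. The log2 fold change, siCEP20 minus siCTR on the log2(TPM + 1) scale, was −0.92 ± 0.0915 (SE, n = 3 per group; limma, adjusted p = 0.000205). Relative to the overall median it was −1.05, and 1.58% of tested genes had a log2 fold change as low or lower. A two-sided exact permutation test of the difference of means had p = 0.1, which a design of 3 against 3 cannot go below, and the same held for the 8 other genes whose groups did not overlap. The targeted gene was thus low in the 3 libraries labelled as knockdown and in none of the controls.

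Among the other 9 genes, 5 rose and none fell at an adjusted p under 0.05. Limma thus placed 5 of the 10 as higher and CEP20 alone as lower, where 30.2% of all tested genes were higher and 13.2% lower. With a fold change over 1.5 or under 0.67 required as well, 2 were called higher (PCM1 and CEP290) and 1 lower (CEP20), beside 11.2% and 4.61% of all tested genes. The 3 siCEP20 samples lay wholly above the controls for 7 genes and wholly below for 2, against 38.4% and 17.0% of tested genes. The median log2 fold change of the 10 was 0.36, or 0.23 above the overall median. The direction of the 10 changes was kept under all 15 alternative settings, while the calls were not. With median-of-ratios scaling between libraries, which brought the overall median to 0.0001, 5 of the 10 were higher and 2 lower and none but CEP20 passed the fold threshold, while the counts of all tested genes called higher and lower went from 1659 and 682 to 894 and 1103. After correction for transcript length and GC content, 3 were higher and 3 lower. The canonical transcripts of the 10 genes had a median length of 4389 bases and a median GC content of 41.0%, against 2818 bases and 49.2% for the tested genes.

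**Figure D1:**
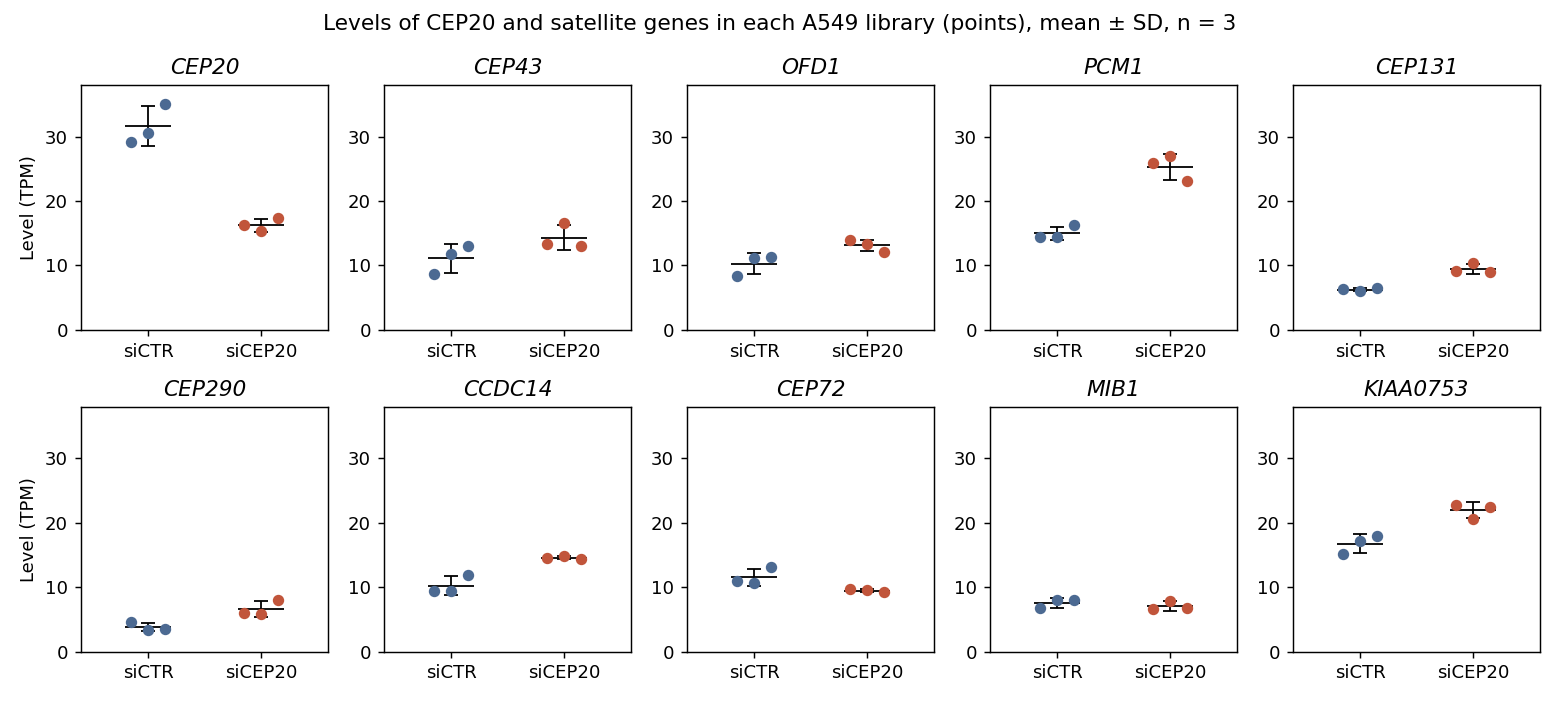
Level of each of the 10 genes in TPM, with 1 point per library (siCTR blue, siCEP20 red), a line at the group mean and bars of 1 SD (n = 3 each). CEP20 falls from between 29.2 and 35.1 TPM to between 15.3 and 17.3 TPM, PCM1 rises from at most 16.2 to at least 23.1 TPM, and MIB1 is the only gene whose groups overlap.

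PCM1 (ENSG00000078674, chromosome 8, 17922842 to 18029948, plus strand), the satellite scaffold, had the smallest adjusted p of the genes that rose. It measured 14.4, 14.4 and 16.2 TPM in siCTR and 25.9, 26.9 and 23.1 TPM in siCEP20. The lowest knockdown sample was well above the highest control. Its log2 fold change of 0.72 ± 0.0888 (limma, adjusted p = 0.000539) stayed past the threshold in all 15 alternatives, between 0.43 after the length and GC correction and 0.78. Relative to the overall median it was 0.58.

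CEP290 (ENSG00000198707, chromosome 12, 88049016 to 88142099, minus strand) encodes a large protein of the ciliary transition zone, the gate at the base of the cilium, that is also a satellite component. It was the least abundant of the 10 in the controls, at 4.55, 3.34 and 3.54 TPM, and reached 5.98, 5.87 and 8.02 TPM after knockdown. The groups did not overlap, although the siCEP20 samples spread over a wide range with the 3rd the highest. CEP290 had a log2 fold change of 0.66 ± 0.154 (limma, adjusted p = 0.00968). It lost significance with quantile normalization (log2 fold change 0.49, adjusted p = 0.0511) and with the length and GC correction (0.39, adjusted p = 0.137), and it fell under the 1.5-fold threshold when siCEP20 replicate 3 was left out, which left 1 gene of the 10 called higher.

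CEP131 (ENSG00000141577, chromosome 17, 81189593 to 81222999, minus strand), also called AZI1, encodes a satellite protein needed for normal ciliogenesis. It measured 6.33, 5.97 and 6.47 TPM in siCTR and 9.09, 10.4 and 8.95 TPM in siCEP20. Controls were tightly grouped and each knockdown sample was above them. Its log2 fold change was 0.53 ± 0.0989 (limma, adjusted p = 0.00362), and it passed the threshold in all 15 alternatives.

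CCDC14 (ENSG00000175455, chromosome 3, 123897305 to 123961408, minus strand) encodes a satellite protein that limits the gathering of centriole duplication factors. Its level was 9.4, 9.47 and 11.9 TPM in siCTR and 14.5, 14.8 and 14.4 TPM in siCEP20. The siCEP20 samples were nearly equal and all above the controls. This was a log2 fold change of 0.48 ± 0.104 (limma, adjusted p = 0.0073), past the threshold in all 15 alternatives.

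KIAA0753 (ENSG00000198920, chromosome 17, 6578147 to 6640711, minus strand), also called OFIP or moonraker, encodes a partner of OFD1 that forms a complex with OFD1 and CEP20. It measured 15.1, 17.1 and 18.0 TPM in siCTR and 22.8, 20.6 and 22.5 TPM in siCEP20. The groups were separate, and the log2 fold change was 0.38 ± 0.0892 (limma, adjusted p = 0.0105). It lost significance only with the length and GC correction, at 0.16 (adjusted p = 0.123).

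The other two proteins with the same LisH architecture did not pass the threshold. CEP43 (ENSG00000213066, chromosome 6, 166999174 to 167052718, plus strand), which encodes a centrosomal protein that anchors microtubules and works in ciliogenesis, measured 8.64, 11.8 and 12.967 TPM in siCTR and 13.4, 16.6 and 12.974 TPM in siCEP20. Its 3rd control and 3rd knockdown sample were all but equal, and the groups were separate only by the gap between these 2. The log2 fold change was 0.35 ± 0.154, with a 95% interval from −0.01 to 0.70 (limma, adjusted p = 0.103).

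OFD1 (ENSG00000046651, chromosome X, 13734743 to 13777955, plus strand), mutated in oral-facial-digital syndrome, encodes a protein of the distal centriole and of satellites. It measured 8.35, 11.1 and 11.3 TPM in siCTR and 13.9, 13.3 and 12.1 TPM in siCEP20. Every knockdown sample was above every control, by a small margin between the closest pair. The log2 fold change was 0.33 ± 0.125, with a 95% interval from 0.04 to 0.62 that is not adjusted for the number of genes (limma, adjusted p = 0.0634). It passed the threshold in 1 of 15 alternatives, protein-coding genes only, at an adjusted p of 0.0423.

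CEP72 and MIB1 were the members other than CEP20 with lower means after knockdown. CEP72 (ENSG00000112877, chromosome 5, 612340 to 667168, plus strand) encodes a satellite protein that helps recruit CEP290 to satellites and γ-tubulin complexes to centrosomes. It measured 10.9, 10.7 and 13.1 TPM in siCTR and 9.66, 9.56 and 9.21 TPM in siCEP20. The knockdown samples were all below the controls, but the log2 fold change of −0.26 ± 0.1 did not pass (limma, adjusted p = 0.0703). Under 3 settings it did: −0.39 with median-of-ratios scaling (adjusted p = 0.00924), −0.42 with quantile normalization (adjusted p = 0.00692) and −0.36 with the length and GC correction (adjusted p = 0.0178).

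MIB1 (ENSG00000101752, chromosome 18, 21704957 to 21870953, plus strand) encodes a ubiquitin ligase of Notch signalling that also sits on satellites, where it modifies PCM1 and CEP131. Its level was 6.7, 7.97 and 7.99 TPM in siCTR and 6.59, 7.89 and 6.77 TPM in siCEP20. The groups overlapped throughout, and the log2 fold change was −0.08 ± 0.113 with a 95% interval from −0.34 to 0.18 (limma, adjusted p = 0.589). With the length and GC correction it was −0.38 (adjusted p = 0.00945), the one alternative under which it passed.

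**Figure D2:**
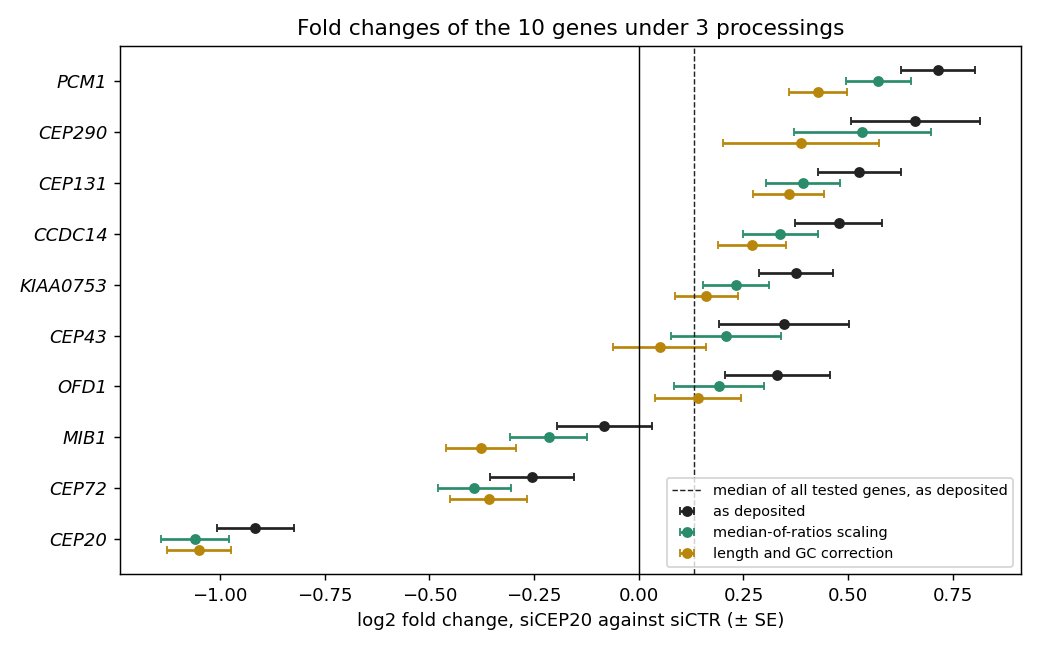
Log2 fold change, siCEP20 minus siCTR on the log2(TPM + 1) scale, of the 10 genes with bars of 1 SE (limma, n = 3 per group), for the values as deposited (black), after median-of-ratios scaling (green) and after the length and GC correction (ochre), with the dashed line at the overall median of the deposited values, 0.13. PCM1 goes from 0.72 to 0.57 and 0.43 and MIB1 from −0.08 to −0.22 and −0.38, while CEP20 stays between −0.92 and −1.06.

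The order of the 10 genes by level changed with the knockdown. CEP20 had the highest level in each siCTR library, with 24.9 to 25.7% of the sum of the 10, and the 3rd or 4th highest in the siCEP20 libraries, with 10.8 to 12.8%. PCM1 was 3rd in every control and 1st in every knockdown library, and KIAA0753 was 2nd in all 6. In siCTR the ranges of KIAA0753 and PCM1 overlapped, as did those of neighbours from CEP72 through CEP43 and OFD1 to CCDC14. In siCEP20 the neighbours CCDC14, CEP43 and OFD1 overlapped, as did CEP72 with CEP131 and MIB1 with CEP290. The sum of the 10 genes was 113.5, 122.4 and 136.6 TPM in siCTR and 138.1, 141.3 and 135.2 TPM in siCEP20, whose ranges overlapped. Without CEP20 the sum of the other 9 was 84.36, 91.89 and 101.5 TPM in siCTR and 121.9, 126.0 and 117.9 TPM in siCEP20, whose ranges did not.

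**Figure D3:**
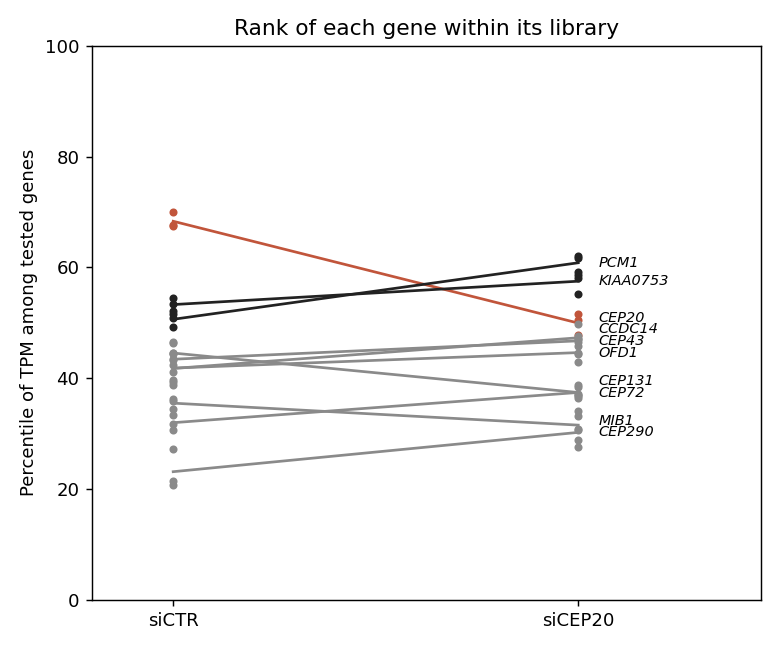
Percentile of each gene's TPM among the tested genes of the same library, with 1 point per library (n = 3 per group) and a line joining the group means, CEP20 in red, PCM1 and KIAA0753 in black and the other genes in grey. The mean percentile of CEP20 goes from 68.3 to 49.95 and that of PCM1 from 50.6 to 60.8, so that the lines cross.

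The ratio of 2 genes within a library does not depend on how libraries are scaled to each other. It can still depend on transcript length and GC content, and it was not computed after that correction. The canonical transcripts of CEP20 and PCM1 have 2264 and 8652 bases. The ratio of CEP20 to PCM1 was 2.03, 2.12 and 2.17 in siCTR and 0.624, 0.568 and 0.749 in siCEP20. CEP20 exceeded PCM1 in each control library and was below it in each knockdown library. The mean log2 ratio was lower by 1.71 ± 0.121 (SE), a 3.27-fold decrease, with an exact permutation p = 0.1, the smallest possible. Against each of the other 8 genes as denominator the ratio also fell without overlap, by 0.68 on the log2 scale against CEP72 and by 1.75 against CEP290 as the extremes. All these ratios share CEP20, the knockdown target, as numerator, so their falls restate its own fall and are not separate results. The ratio to KIAA0753 was 1.93, 1.79 and 1.95 in siCTR and 0.71, 0.74 and 0.769 in siCEP20, and it also went from above 1 to below 1 in every library. Among the others, the log2 ratio to PCM1 fell by 1.03 for CEP72 and by 0.85 for MIB1, without overlap (exact permutation p = 0.1 each). It also fell without overlap for OFD1 (−0.39), KIAA0753 (−0.36), CCDC14 (−0.235) and CEP131 (−0.16; exact permutation p = 0.1 each). Groups overlapped for CEP43 (−0.38, exact permutation p = 0.2) and for CEP290, which differed by 0.04 (exact permutation p = 0.9). The rise of PCM1 itself lowers each of these ratios.

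**Figure D4:**
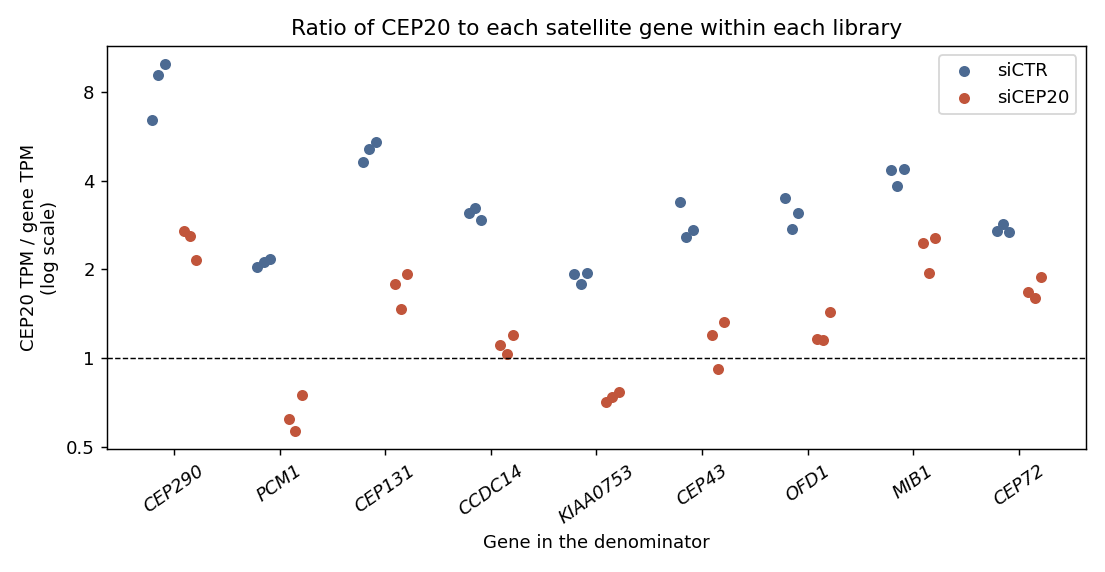
Ratio of CEP20 TPM to the TPM of each other gene within each library, on a log axis, with 1 point per library (siCTR blue, siCEP20 red, n = 3 each) and the dashed line at 1. No pair of groups overlaps for any of the 9 denominators, and for PCM1 and KIAA0753 all points go from above 1 to below 1. The 9 ratios share the numerator CEP20 and are not separate results.

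The stretches upstream of the start sites are shown for CEP20, which fell, and for CEP131, CEP290 and CCDC14, 3 of the genes that rose. In each gene, 4 short motifs were sought in the window from 250 bases before to 50 bases after the RefSeq start site (GRCh38.p14). KIAA0753 also rose, and its upstream stretch of 200 bases, which held no match, is not shown. Promoters of 9 of the 10 genes were matched by symbol, and PCM1 had no entry. Of 34796 promoter windows, 34.6% held the CCAAT box (CCAAT, or ATTGG on the other strand), 17.2% the ETS core CCGGAA (or TTCCGG), 8.18% the NRF1 half-site TGCGCA, which is its own reverse complement, and 15.2% the CHR element TTTGAA (or TTCAAA). The ETS core and its reverse complement can share letters, as they do in OFD1 and CCDC14, and no match of 1 motif overlapped a match of another in the 9 windows. Printed 5′ to 3′ on each gene's own strand, from 250 or fewer bases upstream and stopping at or before 51 bases upstream, without annotated exons, the letters of a matched motif are in capitals:
CEP20 (chr16:15888654-15888853, minus strand): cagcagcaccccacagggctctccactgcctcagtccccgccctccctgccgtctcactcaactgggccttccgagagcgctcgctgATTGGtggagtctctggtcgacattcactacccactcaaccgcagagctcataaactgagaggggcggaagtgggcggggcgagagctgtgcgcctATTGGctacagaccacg
CEP131 (chr17:81223016-81223215, minus strand): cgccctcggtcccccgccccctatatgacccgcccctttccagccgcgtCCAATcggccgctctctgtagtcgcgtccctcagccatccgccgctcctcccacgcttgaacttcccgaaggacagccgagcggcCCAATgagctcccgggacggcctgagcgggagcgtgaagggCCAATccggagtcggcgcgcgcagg
CEP290 (chr12:88142139-88142295, minus strand): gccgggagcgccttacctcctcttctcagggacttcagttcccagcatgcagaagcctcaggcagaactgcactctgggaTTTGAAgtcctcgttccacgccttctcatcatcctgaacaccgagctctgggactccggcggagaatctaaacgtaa
CCDC14 (chr3:123961409-123961479, minus strand): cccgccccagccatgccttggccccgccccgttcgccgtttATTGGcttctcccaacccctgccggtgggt

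CEP20 had a CCAAT box on the opposite strand at positions −163 and −67 from the start site, and CEP131 had 3 on its own strand, at −201, −116 and −75. CCDC14 had 1 on the opposite strand at −209, and MIB1, the gene with overlapping groups, also had 1. The NRF1 half-site was found in CEP20 at −21 and in MIB1 at −11, the CHR element in CEP290 and CEP72, and the ETS core in OFD1, CCDC14 and KIAA0753. The CCAAT box was thus present in CEP20, which fell, in CEP131 and CCDC14, which rose, and in MIB1, which did not pass the test. A match shows only that the letters occur in the window.

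The neighbours of CEP20 on chromosome 16 were read to see whether the fall extended past the gene. MYH11, 8691 bases away on the side of lower coordinates and a gene of smooth muscle myosin, was at most 0.231 TPM in every library and was not tested. ABCC1, a drug efflux transporter gene 60513 bases away on the other side, measured 127, 124 and 129 TPM in siCTR and 134, 141 and 137 TPM in siCEP20, a log2 fold change of 0.12 (limma, adjusted p = 0.0982).

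Several of the 10 genes overlap another annotated gene, and whether reads were counted by strand is not given in the sources used here. C12orf29, on the strand opposite to CEP290, measured 15.4, 14.5 and 15.1 TPM in siCTR and 14.7, 26.7 and 20.9 TPM in siCEP20, above the level of CEP290 itself. TPPP, on the strand opposite to CEP72, measured 0.587, 0.605 and 0 TPM in siCTR and 1.57, 1.85 and 1.4 TPM in siCEP20, and passed the test (log2 fold change 0.93 on the log2(TPM + 1) scale; limma, adjusted p = 0.0144), though not with the length and GC correction (0.70, adjusted p = 0.052). TPPP averaged 1.001 TPM over the 6 libraries and met the filter of 1 TPM only through siCEP20. Such a gene is favoured to show a rise, so its test carries little weight. An unnamed gene, ENSG00000282936, lies on the same strand as KIAA0753 and measured 0.923 to 1.39 TPM in siCTR and 1.16 to 1.44 TPM in siCEP20. The other overlapping genes averaged under 0.3 TPM. The part of shared reads in the values of CEP290, CEP72 and KIAA0753 was not tested.

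A list of 40 further satellite or satellite-linked genes gave the setting for the 10. Of these, 38 were tested, and CCDC13 and CCDC15 fell under the filter. The test placed 22 as higher and 3 as lower at an adjusted p under 0.05, against 30.2% and 13.2% of all tested genes. With the fold threshold 6 were called higher and 2 lower, against 11.2% and 4.61%, and 13 of the 38 did not pass the test. The 22 and the 6 include CFAP53, which met the filter only through its levels in siCEP20. Their median log2 fold change, 0.36, was the same as that of the 10 genes to 2 decimals. Without siCEP20 replicate 2 the number higher was 13, with median-of-ratios scaling 14 and with the length and GC correction 11 (and 6 lower). The shares of all tested genes given above do not apply to these settings.

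By the rule for naming, HAUS6, a subunit of the augmin complex that nucleates microtubules in the spindle, measured 13.2, 13.1 and 14.2 TPM in siCTR and 21.1, 20.8 and 20.3 TPM in siCEP20 (log2 fold change 0.59, adjusted p = 0.000591). CCDC112 measured 4.21, 4.02 and 3.9 against 7.28, 9.31 and 7.94 TPM (0.86, adjusted p = 0.000808). Both were higher in every knockdown sample than in any control, as were 38.4% of all tested genes. PARD6A, a polarity protein gene whose product binds PCM1, measured 7.77, 5.53 and 7.01 TPM in siCTR and 4.09, 4.56 and 5.2 TPM in siCEP20 (−0.46, adjusted p = 0.0304; limma for all 3).

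Genes of the list that encode parts of a single enzyme complex moved in both directions. TPGS1, TPGS2, LRRC49, NICN1, CSTPP1 and TTLL1 encode parts or regulators of the tubulin polyglutamylase complex, which adds glutamate chains to tubulin and is found at satellites; they were considered as a group after their values were seen. TPGS1 measured 21.3, 22.3 and 20.8 TPM in siCTR and 12.1, 13.5 and 11.0 TPM in siCEP20 (log2 fold change −0.77, adjusted p = 0.000455). NICN1 measured 15.1, 15.8 and 22.3 against 11.2, 9.06 and 12.1 TPM (−0.66, adjusted p = 0.012). These 2 fell without overlap, as did 17.0% of all tested genes. CSTPP1, in contrast, measured 25.7, 31.6 and 36.1 TPM in siCTR and 55.0, 54.6 and 61.4 TPM in siCEP20 (0.86, adjusted p = 0.000869). TPGS2 measured 62.4, 64.9 and 73.8 against 75.6, 85.0 and 90.0 TPM (0.31, adjusted p = 0.0216). It did not pass with median-of-ratios scaling (0.16, adjusted p = 0.104) or with the length and GC correction (0.12, adjusted p = 0.206). LRRC49 and the catalytic subunit gene TTLL1 did not pass (adjusted p = 0.231 and 0.176; limma throughout).

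**Figure D5:**
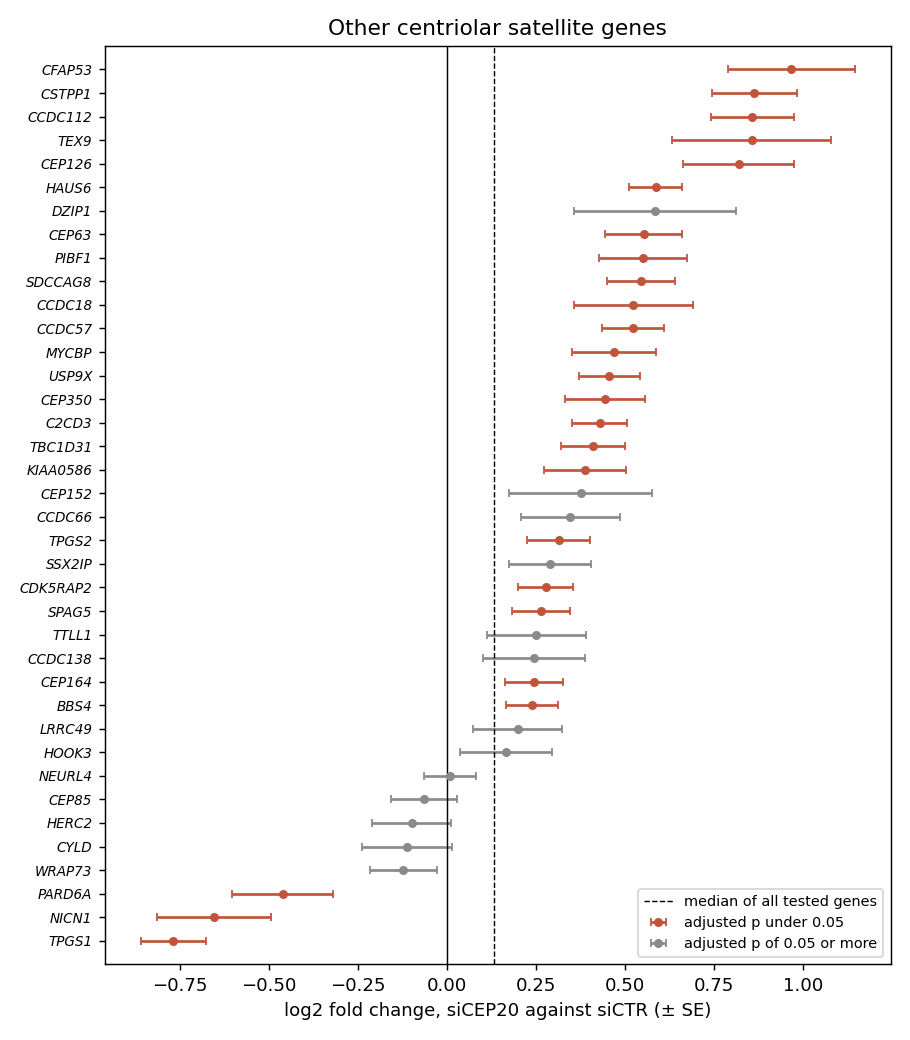
Log2 fold change, siCEP20 minus siCTR on the log2(TPM + 1) scale, of the 38 tested genes of the satellite list, sorted by value, with bars of 1 SE (limma, n = 3 per group), in red at an adjusted p under 0.05 and in grey otherwise, and the dashed line at the overall median of 0.13. The 22 higher and 3 lower genes are in red, with TPGS1 the lowest at −0.77 and CFAP53 the highest at 0.97. CFAP53 measured 0.566, 0.625 and 0.777 TPM in siCTR and 1.98, 1.99 and 2.8 TPM in siCEP20. It met the filter of 1 TPM only through siCEP20, which favours a rise.

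CEP43 works with CEP350 and CEP19 to bring the small GTPase RABL2 and intraflagellar transport proteins to the ciliary base, and with MAPRE1 at microtubule ends. Of these 6 genes, 5 were higher and none lower at an adjusted p under 0.05 (30.2% and 13.2% of all tested genes), 3 were called higher with the fold threshold (11.2%), and their median log2 fold change was 0.60. RABL2B measured 20.3, 20.9 and 21.3 TPM in siCTR and 34.6, 38.5 and 36.9 TPM in siCEP20 (log2 fold change 0.78, adjusted p = 0.000137), and RABL2A 8.45, 10.1 and 14.0 against 21.9, 21.1 and 19.4 TPM (0.90, adjusted p = 0.00264). The 2 RABL2 genes are near-identical copies that can share reads, so how the counts were divided between them is uncertain. IFT74, an intraflagellar transport subunit gene, measured 10.5, 9.39 and 10.2 TPM in siCTR and 18.7, 17.2 and 16.8 TPM in siCEP20 (0.75, adjusted p = 0.000372). All 3 had siCEP20 wholly above siCTR, as did 38.4% of all tested genes. The other 2 that passed were MAPRE1 (0.22, adjusted p = 0.00952) and CEP350 (0.44, adjusted p = 0.0141), and CEP19 did not (0.29, adjusted p = 0.275). MAPRE1 did not pass with median-of-ratios scaling (0.07, adjusted p = 0.273) or with the length and GC correction (0.07, adjusted p = 0.252). CEP350 did not pass with quantile normalization (0.27, adjusted p = 0.0731) or with the length and GC correction (0.14, adjusted p = 0.249). After the length and GC correction, 3 of the 6 were higher.

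Among 7 kinase genes tied to centrosomes and satellites, 4 were higher and none lower at an adjusted p under 0.05 (30.2% and 13.2% of all tested genes), and 1 was called higher with the fold threshold (11.2%). PLK4, whose product starts centriole duplication, measured 4.3, 4.59 and 5.14 TPM in siCTR and 7.8, 7.47 and 7.99 TPM in siCEP20 (log2 fold change 0.63, adjusted p = 0.00208). NEK2, which splits centrosomes before mitosis, measured 15.5, 16.6 and 19.5 against 24.1, 26.2 and 22.7 TPM (0.48, adjusted p = 0.00614). PLK1, a mitotic kinase that works at centrosomes, measured 101, 97.9 and 113 against 114, 141 and 133 TPM (0.30, adjusted p = 0.028). All 3 had siCEP20 wholly above siCTR, as did 38.4% of all tested genes. PLK1 did not pass with median-of-ratios scaling (0.15, adjusted p = 0.148) or with the length and GC correction (0.21, adjusted p = 0.0671). MAPK14, which encodes the stress kinase p38α and was the only one of the 7 with a negative value, measured 15.6, 16.8 and 17.0 against 14.9, 15.5 and 15.5 TPM, a log2 fold change of −0.10 (adjusted p = 0.335), and −0.24 with median-of-ratios scaling (adjusted p = 0.0165; limma). Without siCTR replicate 1, siCTR replicate 2 or siCEP20 replicate 3, 2 of the 7 were higher.

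Of 20 other genes for proteins with a LisH domain, 7 rose and 1 fell at an adjusted p under 0.05, shares near and below those of all tested genes (30.2% and 13.2%), with 5 called higher and none lower (11.2% and 4.61%). Their middle log2 fold change was 0.19, which is 0.06 above the overall median. TCOF1 measured 44.7, 44.9 and 50.1 TPM in siCTR and 70.3, 70.7 and 68.1 TPM in siCEP20 (0.57, adjusted p = 0.000414). NOLC1 measured 59.3, 81.6 and 66.4 against 123, 148 and 140 TPM (0.98, adjusted p = 0.000496). Both encode proteins of the nucleolus that take part in ribosome production. SSBP4 measured 50.7, 45.5 and 51.3 against 69.8, 66.4 and 68.2 TPM (0.47, adjusted p = 0.00111). RMND5B, a subunit gene of the CTLH ubiquitin ligase, fell from 29.0, 30.0 and 26.1 to 22.6, 24.8 and 21.7 TPM (−0.29, adjusted p = 0.0247). RMND5B did not pass without siCTR replicate 2, siCEP20 replicate 1 or siCEP20 replicate 3. Its paralog RMND5A (−0.33, adjusted p = 0.0533) and MKLN1 (−0.16, adjusted p = 0.462; limma) did not pass. RMND5A did pass with median-of-ratios scaling (−0.47, adjusted p = 0.00757), quantile normalization (−0.50, adjusted p = 0.00534) and the length and GC correction (−0.59, adjusted p = 0.00216; limma).

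The 5 tested genes whose log2(TPM + 1) followed CEP20 most closely over the 6 libraries were DNPH1, SPX, FHL1, FCGRT and METAP2, with Pearson's r between 0.9971 and 0.9995. The 6 points form 2 groups, so such an r mostly restates a fall in siCEP20 and is given as a description. DNPH1, which encodes a nucleotide-cleaving enzyme, measured 76.7, 78.8 and 85.6 TPM in siCTR and 50.5, 48.2 and 52.1 TPM in siCEP20. SPX, which encodes a peptide hormone, measured 17.9, 18.1 and 21.3 against 10.5, 10.1 and 11.3 TPM, the change nearest in size to that of CEP20 of the 5. FHL1, FCGRT and METAP2 fell to 70.6%, 65.9% and 67.5% of their control means. Among the other chosen genes, not counting the longer satellite list, CEP72 had the highest r with CEP20, 0.887, and CEP131 the lowest, −0.96.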

How the data were processed

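Transcript levels were measured by RNA-seq of A549 cells, with 3 samples per group. The authors prepared polyadenylated RNA libraries, used fastp 0.20.1, HISAT2 2.1.0 and StringTie 2.0 (submitters' processing notes) with hg38, and deposited TPM per Ensembl gene. The annotation release is not given in the sources used here. TPM holds no read counts, so depth is unknown, no counting interval was computed and precision rests on 3 samples per group. A count test does not suit this unit.

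Genes were named and placed with GENCODE release 44, which held 60370 of 60624 IDs. After removal of genes averaging under 1 TPM, log2(TPM + 1) was compared by limma (version 3.58.1, R 4.3.3; trended eBayes, no rescaling between libraries), with Benjamini-Hochberg adjustment over all 14778. Calls required an adjusted p under 0.05 together with a fold above 1.5 or below 0.67. A fold change on this scale understates that of genes with low levels. The script was tested on simulated data. Exact two-sided permutation tests (numpy 2.4.6) were run on means and on log2 ratios. The 95% intervals took their t quantile from scipy 1.17.1. The alternatives were another pseudocount (0.1), no filter and a filter of 5 TPM, median-of-ratios and quantile scaling, eBayes without trend, the replicate number as a block, protein-coding genes only, a loess correction (span 0.5) for transcript length and GC content, and each sample left out in turn. Promoters came from RefSeq (GRCh38.p14).

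The named genes were the 10 chosen genes, the 3 genes with the smallest adjusted p in each direction in each list, genes overlapping a member or next to CEP20, and the 5 most correlated with CEP20. TPGS2, LRRC49, TTLL1, MAPRE1, CEP350, CEP19, CFAP53, CCDC13, CCDC15 and the marker genes fall outside this rule, and those of the lists were named after their values were seen. The members and lists were chosen with earlier results of these data known.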

Additional observations from a re-analysis of the deposited data

How the results depend on the processing

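CEP20 kept its direction and its side of the threshold under all 15 alternatives (log2 fold change −1.06 to −0.84, adjusted p 8.95e-05 to 0.00294), as did PCM1, CEP131 and CCDC14. Counts depended on scaling. Below, all genes called had to pass the fold threshold as well, while counts of the lists are at an adjusted p under 0.05 alone. The shares of 30.2% and 13.2% of all tested genes belong to the fit without rescaling, and those under these settings are not given. With the fold threshold the satellite list had 5 higher and 3 lower with either scaling. After the length and GC correction it had 4 and 2. With median-of-ratios scaling, all genes called were 894 higher and 1103 lower, 2 of the 10 genes were lower, 14 of the satellite list higher, 2 of the LisH list lower, and 2 kinases higher and 1 lower. Quantile normalization gave 923 genes called higher and 1016 lower, 2 of the 10 lower, 14 satellite genes higher, 2 LisH genes lower and 1 kinase lower. The length and GC correction gave 894 called higher and 881 lower, 3 of the 10 higher and 3 lower, 11 satellite genes higher and 6 lower, 3 LisH genes lower, 2 kinases higher and 1 lower, and 3 genes of the CEP43 module higher. Without the TPM filter, 1 satellite gene and 0 LisH genes were lower and 2 kinases higher. With the filter at 5 TPM 2 LisH genes were lower, with protein-coding genes only 11 LisH genes were higher and 2 lower, and without the trend 2 kinases were higher. The causes were not tested. Leaving out each sample in turn gave 13 to 21 satellite genes higher, 0 to 2 LisH genes lower, 2 to 3 kinases higher and 1372 to 1890 genes called higher in all.

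Samples of the 2 groups share replicate numbers, but deviations from the group means correlated at 0.157, −0.0614 and −0.0623 for equal numbers, so the numbers were not taken as pairing. With the replicate block, 1654 genes were called higher and 694 lower, and CEP20 was at −0.92. Because the files hold TPM, the depth of a library and the error it sets are unknown.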
